A study of Mus musculus with 10 samples.

Results

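Casp1, Casp4, Casp8, Gsdmd, Mlkl, Ripk3 and Zbp1 belong to the machinery of inflammatory cell death. Their mRNA and that of Xaf1 was followed here in colon tumors with and without epithelial Wnt secretion. These genes were chosen for their roles in pyroptosis and necroptosis, and Xaf1 was added as an interferon-induced antagonist of a caspase inhibitor. The choice was made with earlier results of these data known. All 8 were found among the 16875 gene names of the expression table, and all 8 were among the 16757 genes with a mean of at least 0.5 FPKM that entered the test. FPKM, the number of sequenced fragments of a transcript scaled for its length and for the size of the library, is a measure of mRNA level that can be compared between genes.

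Pyroptosis and necroptosis are lytic forms of programmed death, in which the cell bursts and releases its contents, whereas an apoptotic cell is dismantled behind an intact membrane. In pyroptosis, inflammasome sensors activate caspase-1, or bacterial lipopolysaccharide in the cytosol activates the caspase encoded by Casp4, and these proteases cleave gasdermin D, whose released part opens pores in the plasma membrane. In necroptosis, RIPK3 is engaged by RIPK1 or by the nucleic acid sensor ZBP1 and phosphorylates MLKL, which then breaches the membrane. Caspase-8 stands between these routes: with FADD it starts apoptosis, it cleaves RIPK1 and RIPK3 and thereby holds back necroptosis, and mice that lack it in the intestinal epithelium lose epithelial cells by necroptosis. Zbp1, Mlkl, Casp4 and Xaf1 are known as genes that interferons induce. These proteins act after cleavage, phosphorylation or assembly, none of which is measured by mRNA level.

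The 10 samples were macrodissected colon tumors of mice on a C57Bl6 background, 5 labelled Wls control with the genotype Wls flox/flox and 5 labelled Villin-Wls cKO, which also carried Villin-Cre ERT2, a tamoxifen-inducible recombinase driven in intestinal epithelium. Every mouse had received azoxymethane (AOM), a colon carcinogen, by injection, followed by 3 cycles of 2% dextran sulfate sodium (DSS), which injures the colon lining, and tumors were collected 120 days after AOM. Mice were between 6 and 10 weeks old when the experiment began. Villin-Wls cKO mice were given tamoxifen at 80 mg/kg in 5 injections starting 30 days before collection, which deletes Wls, the carrier needed for Wnt secretion, while the control tumors are described as not exposed to tamoxifen. The driver acts in the epithelium only, so stromal and immune cells of a Villin-Wls cKO tumor kept Wls. How many mice gave the 5 tumors of a group is not given in the sources used here, so n counts tumors and p-values measure the spread between tumors, some of which may share an animal.

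Wls lay between 61.3 and 79.9 FPKM in control tumors and between 2.03 and 11.7 FPKM in Villin-Wls cKO tumors, as their labels say. The epithelial markers were abundant in every tumor, with Epcam at a mean of 986 FPKM in control and 1120.2 FPKM in Villin-Wls cKO tumors. Xist was at 0.420 FPKM or less in all control tumors and at 439 FPKM or more in all Villin-Wls cKO tumors, and Eif2s3y, a Y-linked gene, was at 30.4 FPKM or more in the former and at 0.138 FPKM or less in the latter. By these genes all control tumors look male and all Villin-Wls cKO tumors female, although the study reports a preference for female mice. Sex, tamoxifen and genotype therefore cannot be told apart as sources of any difference given here. Villin-Wls cKO tumors 2 and 3 held the squamous keratin Krt5 at 469.5 and 669 FPKM, while no other tumor exceeded 0.315 FPKM, and results are given with and without this pair where that mattered. The pair also held more Wls, at 11.6 and 11.7 FPKM, than the other Villin-Wls cKO tumors, at 2.03 to 3.61 FPKM.

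The 8 genes lie on 7 chromosomes of GRCm38, and only Casp1 and Casp4 are neighbours. In the GENCODE M21 annotation, Casp1 spans chr9:5298517-5307265 and Casp4 chr9:5308828-5336783, both on the plus strand and 1563 bases apart. Casp8 spans chr1:58795374-58847503 and Gsdmd chr15:75862327-75867408, both on the plus strand. Ripk3 spans chr14:55784995-55788865, Mlkl chr8:111311797-111338177 and Zbp1 chr2:173206612-173218923, all on the minus strand. Xaf1 spans chr11:72301629-72313733 on the plus strand. Mlkl is overlapped by a pseudogene on the opposite strand and Casp8 by a predicted transcript on its own strand. Neither has an entry in the expression table, and whether their reads entered the values of Mlkl and Casp8 is not known. No member shared its values with another gene name, as happened for 2419 names of the table.

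RefSeq promoter windows on GRCm38.p6 reach from upstream of a transcript start to 50 bases after it. They were at hand for 6 of the 8 genes, with 7 windows because Casp4 has 2 starts. Zbp1 and Gsdmd had no window, so their promoters were not searched. Casp8 and Xaf1 are shown because their windows hold the longest run of bases shared by any pair of these genes, 12 bases on the same strand, against 10 bases for the next longest. The pair was picked after the values were seen. In the 30-base stretches below, written from the 5′ to the 3′ end on the plus strand, capitals mark the shared run, which lies at bases -110 to -99 from the Casp8 start and at bases 10 to 21 after the Xaf1 start.
Casp8 stretch: tgcgaaagcAGAAACGAAACTgggagacca
Xaf1 stretch: tgtgtgcaaAGAAACGAAACTccacagaag
The run was present in 6 of 32851 promoter windows. The other windows belonged to Ddx58, Fyco1, Helz2 and Oas3, of which Oas3 (log2 change 1.75, limma adjusted p = 0.00538) and Helz2 (0.41, adjusted p = 0.0047) were higher in Villin-Wls cKO tumors, while Ddx58 was at -0.12 and Fyco1 at -0.21 with adjusted p of 0.655 and 0.131. Searched on both strands, the letters GAAANNGAAA of an interferon-stimulated response element occurred in 3.44% of all windows. The letters TTCNNNGAA of a gamma-activated sequence occurred in 8.3%. Either was found in 11.3% of all windows and in 0 of the 7 windows of these genes, which are too few to read a lack from. The shared run holds the letters GAAACGAAA, with fewer bases between its GAAA repeats than the first pattern asks for, so the search did not count it. The upstream parts of these windows, at chr1:58802252-58802501 for Casp8 and chr11:72301379-72301628 for Xaf1, carry the run in Casp8 only. The RefSeq start of Casp8 used here lies 7128 bases inside the GENCODE gene.
Casp8 upstream: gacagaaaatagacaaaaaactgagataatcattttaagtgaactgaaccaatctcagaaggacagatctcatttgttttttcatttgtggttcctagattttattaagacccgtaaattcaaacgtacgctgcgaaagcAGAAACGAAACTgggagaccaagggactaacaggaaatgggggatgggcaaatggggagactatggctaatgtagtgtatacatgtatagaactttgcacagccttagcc
Xaf1 upstream: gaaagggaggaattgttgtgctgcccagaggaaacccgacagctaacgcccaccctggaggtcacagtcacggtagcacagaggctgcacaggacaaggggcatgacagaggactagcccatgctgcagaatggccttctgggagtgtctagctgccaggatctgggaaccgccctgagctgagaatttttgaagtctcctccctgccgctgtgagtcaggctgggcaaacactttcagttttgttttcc

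All 8 genes were higher in Villin-Wls cKO tumors, and in all 8 the lowest Villin-Wls cKO tumor lay above the highest control tumor. Since the 8 were chosen with earlier results of these data known, the shares of all genes given next are no test of the list. Of all 16757 genes tested with limma on log2(FPKM + 1), 10.9% passed a Benjamini-Hochberg adjusted p of 0.05 in either direction, 6.12% passed it as higher in Villin-Wls cKO tumors, and 5.33% had every Villin-Wls cKO tumor above every control tumor. The changes of the 8 ranged from 0.59 to 2.55 on the log2 scale with a median of 1.00, beside a median of 0.0073 over all genes tested. For each of the 8, an exact two-sided permutation test of the difference of means gave p = 0.00794, the smallest that 5 against 5 tumors allow, so this p does not rank the genes. In bulk tumor RNA, more cells that express a gene and more of its mRNA per cell cannot be told apart.

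**Figure D1:**
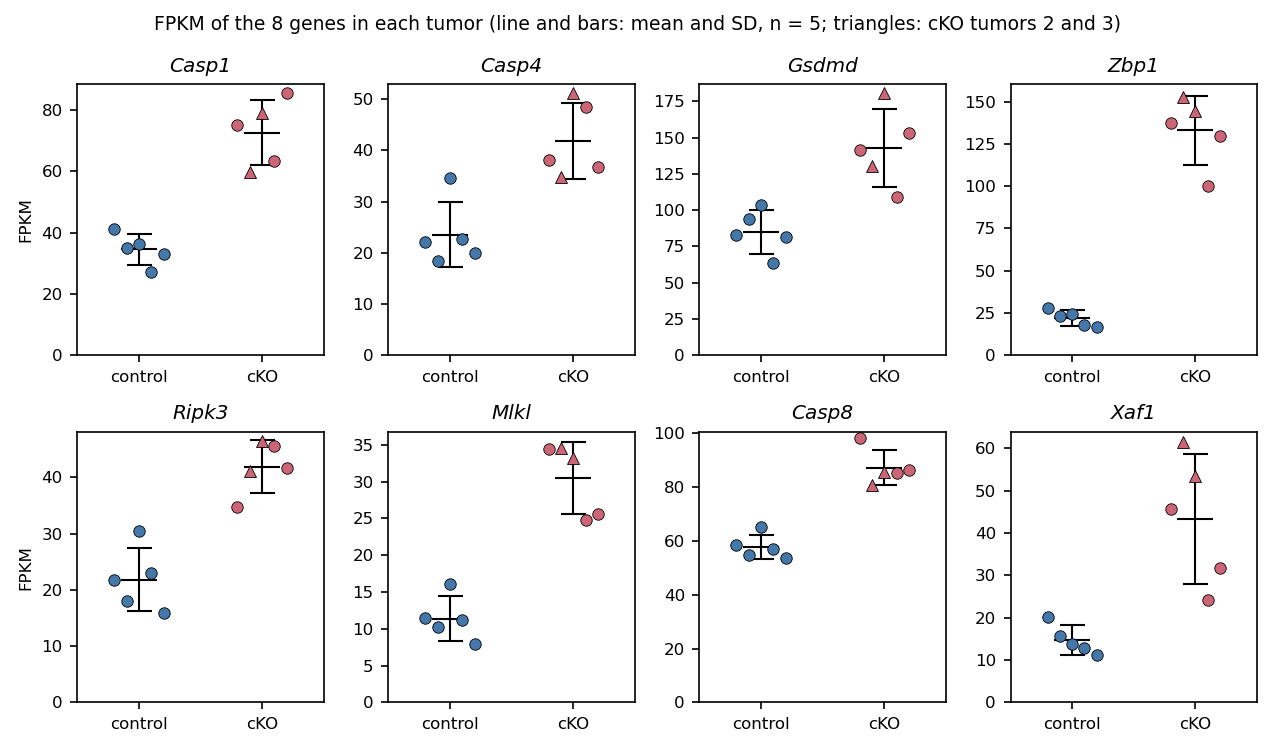
FPKM of each of the 8 genes in the 5 control tumors (blue) and the 5 Villin-Wls cKO tumors (red), with the group mean and SD as lines; triangles are Villin-Wls cKO tumors 2 and 3. In every panel the groups do not overlap, with the widest gap for Zbp1 (27.8 against 99.9 FPKM) and the narrowest for Casp4 (34.6 against 34.8 FPKM).

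The pyroptosis arm was read from its 2 inflammatory caspases and their substrate. Casp1, which encodes the protease of canonical inflammasomes, was at 41.1, 35.1, 36.2, 27.2 and 32.9 FPKM in control tumors 1 to 5 and at 75.1, 59.9, 79.0, 63.5 and 85.4 FPKM in Villin-Wls cKO tumors 1 to 5. The groups were well apart, since the lowest Villin-Wls cKO tumor stood 1.46-fold above the highest control tumor. The mean rose 2.1-fold, from 34.5 ± 5.06 to 72.6 ± 10.7 FPKM (SD, n = 5 tumors each), a log2 change of 1.05 (SE 0.125, adjusted p = 0.000596).

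Casp4, the mouse gene for the lipopolysaccharide-sensing protease also called caspase-11, was at 22.1, 18.4, 34.6, 22.7 and 20.0 FPKM in control tumors. In Villin-Wls cKO tumors it was at 38.1, 34.8, 51.2, 48.5 and 36.7 FPKM. The groups only just separated, because control tumor 3 stood far above the other control tumors and within 1.01-fold of the lowest Villin-Wls cKO tumor. The mean rose 1.78-fold, from 23.5 ± 6.41 to 41.9 ± 7.44 FPKM, a log2 change of 0.82 (SE 0.170, adjusted p = 0.0128).

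Gsdmd encodes gasdermin D, the pore-forming substrate of both caspases, and had the highest level of the 8 genes in either group. Its values were 83.0, 94.0, 103, 63.2 and 81.6 FPKM in control tumors and 141, 131, 181, 109 and 153 FPKM in Villin-Wls cKO tumors. Control tumor 3 and Villin-Wls cKO tumor 4 came within 1.05-fold of each other. The mean rose 1.68-fold, from 85.1 ± 15.1 to 143 ± 26.7 FPKM, a log2 change of 0.74 (SE 0.154, adjusted p = 0.0129). Without Villin-Wls cKO tumors 2 and 3 the change was 0.66 (SE 0.169) and no longer passed, at an adjusted p of 0.0563, the only one of the 8 calls lost under any of 22 other settings.

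The necroptosis arm held the largest change. Zbp1, which encodes a sensor of Z-form nucleic acids that binds RIPK3, was at 27.8, 23.1, 24.4, 18.0 and 16.6 FPKM in control tumors and at 138, 153, 145, 99.9 and 129.7 FPKM in Villin-Wls cKO tumors. Even the lowest Villin-Wls cKO tumor was 3.60-fold above the highest control tumor. The mean rose 6.05-fold, from 22.0 ± 4.65 to 133 ± 20.4 FPKM, a log2 change of 2.55 (SE 0.155, adjusted p = 8.51e-06). Ordered from the largest rise to the largest fall, this change ranked 69 among those of the 16757 genes, with names of identical values each counted.

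Ripk3 encodes the kinase at which the routes into necroptosis meet. Control tumors gave 21.7, 18.0, 30.5, 23.0 and 15.9 FPKM, and Villin-Wls cKO tumors gave 34.7, 41.1, 46.4, 45.6 and 41.8 FPKM. The highest control tumor was again tumor 3, and the lowest Villin-Wls cKO tumor stood 1.14-fold above it. The mean rose 1.92-fold, from 21.8 ± 5.61 to 41.9 ± 4.65 FPKM, a log2 change of 0.94 (SE 0.156, adjusted p = 0.00419).

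Mlkl encodes the pseudokinase that RIPK3 phosphorylates and that carries out necroptosis. It was the lowest of the 8 genes in both groups, at 11.5, 10.2, 16.1, 11.2 and 7.87 FPKM in control tumors and 34.4, 34.6, 33.2, 24.8 and 25.7 FPKM in Villin-Wls cKO tumors. The gap between the groups was 1.53-fold, the second widest of the 8. The mean rose 2.68-fold, from 11.4 ± 3.01 to 30.5 ± 4.89 FPKM, a log2 change of 1.36 (SE 0.169, adjusted p = 0.000768).

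Casp8 showed the smallest change of the 8 and the smallest spread between tumors. Its values were 58.3, 54.6, 65.2, 57.1 and 53.6 FPKM in control tumors and 98.3, 80.6, 85.5, 85.4 and 86.3 FPKM in Villin-Wls cKO tumors. Its coefficient of variation was 7.93% in control and 7.55% in Villin-Wls cKO tumors, against at least 11.1% for each of the other genes in either group. The mean rose 1.51-fold, from 57.8 ± 4.58 to 87.2 ± 6.58 FPKM, a log2 change of 0.59 (SE 0.0729, adjusted p = 0.000769).

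Xaf1 encodes a protein that binds the caspase inhibitor XIAP and opposes it. It was at 20.2, 15.7, 13.7, 12.8 and 11.2 FPKM in control tumors and at 45.6, 61.4, 53.4, 24.1 and 31.8 FPKM in Villin-Wls cKO tumors. Villin-Wls cKO tumors 4 and 5 were low and the others high, and the coefficient of variation within Villin-Wls cKO tumors, 35.4%, was the largest of the 8 genes. The mean rose 2.94-fold, from 14.7 ± 3.47 to 43.2 ± 15.3 FPKM, a log2 change of 1.44 (SE 0.247, adjusted p = 0.00491). Without Villin-Wls cKO tumors 2 and 3, its 2 highest values, the change was 1.13 (SE 0.228, adjusted p = 0.0231).

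In the order of the levels, Zbp1 moved from place 5 in control to place 2 in Villin-Wls cKO tumors, Xaf1 from 7 to 5 and Casp4 from 4 to 7. In control tumors the order was Gsdmd, Casp8, Casp1, Casp4, Zbp1, Ripk3, Xaf1 and Mlkl, from 85.1 down to 11.4 FPKM. Gsdmd exceeded Casp8, and Casp8 exceeded Casp1, in 5 of 5 control tumors, whereas Casp4, Zbp1 and Ripk3, with means between 21.8 and 23.5 FPKM, changed places from tumor to tumor and did not differ beyond their spread. In Villin-Wls cKO tumors Zbp1 stood second, at 133 FPKM beside 143 FPKM for Gsdmd, which exceeded it in 4 of 5 tumors. Zbp1 exceeded Casp8, and Casp8 exceeded Casp1, in 5 of 5 Villin-Wls cKO tumors. Xaf1, Ripk3 and Casp4 lay between 41.9 and 43.2 FPKM there and did not differ beyond their spread, and Mlkl was again last.

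Ratios of 2 genes within a tumor do not depend on the factor by which that tumor was scaled. The pairs were chosen after the values were seen and were not tested. Zbp1 mRNA was between 0.203 and 0.334 of the Gsdmd level in control tumors and between 0.800 and 1.17 of it in Villin-Wls cKO tumors. The ratio of Ripk3 to Ripk1, which encodes its partner kinase and whose entry shares its values with Gm17084, lay between 0.890 and 1.57 in control and between 1.65 and 2.2 in Villin-Wls cKO tumors, and that of Casp8 to its adaptor Fadd between 8.38 and 10.4 and between 13.2 and 17.3. The ratio of Mlkl to Ripk3, between 0.489 and 0.568 in control tumors and between 0.543 and 0.991 in Villin-Wls cKO tumors, overlapped between the groups. So did the ratio of Casp4 to Casp1, between 0.523 and 0.954 and between 0.430 and 0.764, and that of Xaf1 to Xiap, between 0.508 and 0.955 and between 0.954 and 3.37.

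Control tumor 3 was the highest control tumor for 5 genes (Casp4, Casp8, Gsdmd, Mlkl and Ripk3) and control tumor 1 for the other 3, and control tumor 5 was the lowest for 5. Among Villin-Wls cKO tumors, tumor 4 was the lowest for Gsdmd, Mlkl, Zbp1 and Xaf1, and tumor 2 was the lowest for Casp1, Casp4 and Casp8 but the highest for Mlkl, Zbp1 and Xaf1. After each group's mean was removed, 26 of the 28 pairs of genes had a correlation above 0 over the 10 tumors and 11 had one above 0.5, with a median of 0.37. These are 92.9% and 39.3% of the pairs, beside 50.3% and 10.4% of all pairs of tested genes with distinct values, whose median was 0.003. The pair with the highest value was Zbp1 and Xaf1 (r = 0.85), followed by Casp4 and Ripk3 (0.84) and by Casp1 and Gsdmd (0.72), while Casp4 and Xaf1 had the lowest (-0.18). All genes of a tumor share 1 library and its scaling, so these values are descriptions and carry no p.

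**Figure D2:**
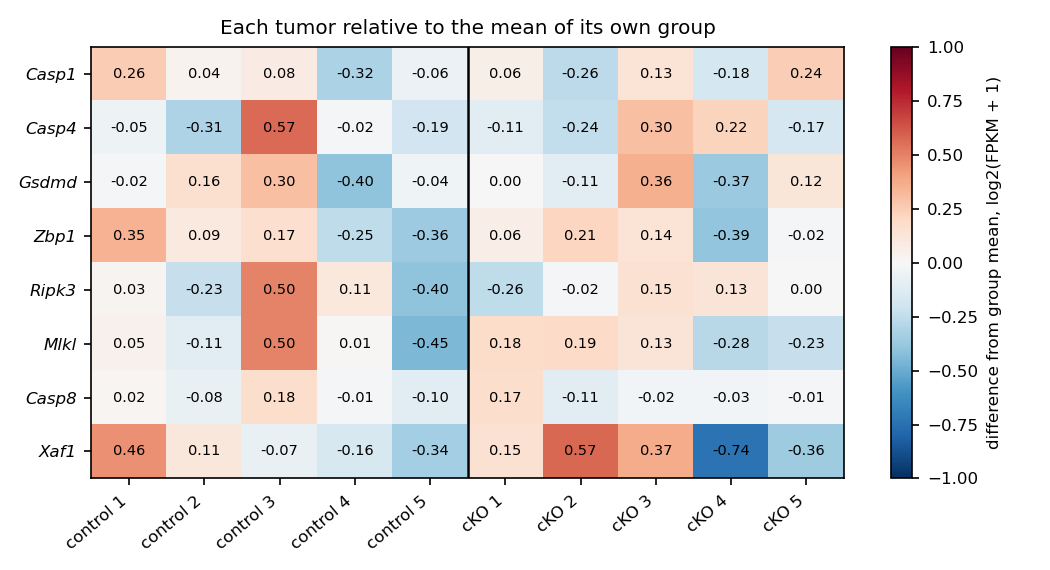
Difference of log2(FPKM + 1) from the mean of its own group for each gene (rows) in each tumor (columns), with red for higher and blue for lower. Control tumor 3 was 0.50 above its group for Ripk3 and Mlkl and 0.57 for Casp4, while Xaf1 ran from 0.57 in Villin-Wls cKO tumor 2 to -0.74 in tumor 4.

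The genes outside the 8 whose deviations from the group means followed the mean standardized profile of the 8 most closely over the 10 tumors were Golga5 (r = 0.96), which encodes a golgin of the Golgi apparatus, Atp2a2 (0.92), which encodes a calcium pump of the endoplasmic reticulum, and Tpm3 (0.92), which encodes a tropomyosin. They were picked as the highest r among all tested genes outside the 8, over only 10 tumors. Whether such values exceed chance was not tested. Between the groups, the log2 change was 0.25 for Golga5 (adjusted p = 0.0635), 0.20 for Atp2a2 (adjusted p = 0.0921) and 0.43 for Tpm3 (adjusted p = 0.0168).

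Among the sensors and adaptors that feed caspase-1, Nlrp6 and Nlrc4 rose. Of 12 such genes tested, 2 were higher in Villin-Wls cKO tumors, 0 were lower and 10 did not pass, with a median change of 0.35. Nlrp6, a sensor of the intestinal epithelium, ranged from 1.56 to 6.44 FPKM in control tumors and from 8.34 to 37.9 FPKM in Villin-Wls cKO tumors, a log2 change of 1.85 (SE 0.383, adjusted p = 0.0129). Nlrc4, which forms the inflammasome that responds to bacterial flagellin through the Naip proteins, rose from 12.7 ± 2.11 to 20.5 ± 2.80 FPKM (log2 change 0.65, SE 0.128, adjusted p = 0.0101). Pycard, which encodes the adaptor ASC, was at 55.8 ± 14.5 and 88.8 ± 33.8 FPKM and did not pass (0.62, adjusted p = 0.187). Nlrp3 (2.30 ± 0.412 and 1.92 ± 0.251 FPKM, adjusted p = 0.399) and Aim2 (50.3 ± 5.74 and 48.7 ± 5.38 FPKM, adjusted p = 0.823) did not pass either. Rescaling to an equal FPKM sum brought the number that passed to 5, with Naip1, Naip2 and Naip5, and leaving out Villin-Wls cKO tumors 2 and 3 brought it to 3, with Naip1.

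Downstream, 1 of 11 other gasdermin and pyroptosis product genes tested was higher, 0 were lower and 10 did not pass, with a median change of 0.094. That gene was Il1a, which encodes an alarm cytokine released by lysed cells, at 4.51 ± 1.84 FPKM in control and 9.36 ± 3.65 FPKM in Villin-Wls cKO tumors (0.90, adjusted p = 0.0492), with overlapping groups, and without Villin-Wls cKO tumors 2 and 3 it did not pass (adjusted p = 0.102). Il1b and Il18, the cytokines that caspase-1 matures, did not pass: Il1b was at 45.3 ± 23.7 and 51.1 ± 29.7 FPKM (adjusted p = 0.917) and Il18 at 67.8 ± 15.9 and 61.5 ± 18.6 FPKM (adjusted p = 0.71). Among these 11 names, Gsdma and Gsdma2 had identical values, as did Gsdmc2 and Gsdmc3, so their reads cannot be assigned to single genes.

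Of 18 other regulators of necroptosis, 3 were higher, 0 were lower and 15 did not pass, with a median change of 0.22. Their summed level lay between 397 and 471 FPKM in control tumors and between 497 and 595 FPKM in Villin-Wls cKO tumors, so every Villin-Wls cKO tumor was above every control tumor. Gene by gene, 3 of the 18 separated in this way, beside 5.33% of all genes tested. Abundant genes weigh most in the sum, such as Tnfrsf1a (70.0 ± 17.6 and 98.6 ± 24.4 FPKM), which did not pass (adjusted p = 0.178). The sum also includes the entry Rnf31. Tnfaip3, which encodes the ubiquitin-editing enzyme A20, rose from 11.7 ± 2.26 to 22.0 ± 3.27 FPKM (log2 change 0.85, SE 0.136, adjusted p = 0.0033). Adar, which encodes the RNA-editing enzyme that limits the ligands of ZBP1, rose from 14.8 ± 1.13 to 21.8 ± 2.47 FPKM (0.52, SE 0.0917, adjusted p = 0.00559). The entry Rnf31 (0.77, adjusted p = 6.67e-05) has the values of Irf9 in every tumor, so its rise cannot be assigned to either gene. The direct partners of the members did not pass: Ripk1, whose entry shares its values with the predicted gene Gm17084, was at 18.2 ± 1.29 and 20.6 ± 1.04 FPKM (adjusted p = 0.144), Fadd at 6.19 ± 0.280 and 5.94 ± 0.382 FPKM (adjusted p = 0.721), and Cflar, which encodes the caspase-8 modulator FLIP, at 26.6 ± 4.33 and 28.9 ± 1.51 FPKM (adjusted p = 0.496). The count was also 3 without Villin-Wls cKO tumors 2 and 3, and 4 after rescaling to an equal FPKM sum, with Birc3 (0.67, adjusted p = 0.0277).

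Among 19 caspases and regulators of apoptosis, 2 were higher, 1 was lower and 16 did not pass, with a median change of -0.021. Bak1, which encodes a mitochondrial pore former, rose from 60.8 ± 5.43 to 96.7 ± 23.4 FPKM (0.63, SE 0.149, adjusted p = 0.0224). Bcl2l1, which encodes the survival protein BCL-XL, fell from 64.9 ± 5.53 to 49.4 ± 4.34 FPKM (-0.39, SE 0.0808, adjusted p = 0.0131). After rescaling to an equal FPKM sum, 4 were higher and 0 lower, so that Bcl2l1 did not pass (-0.28, adjusted p = 0.098), and without Villin-Wls cKO tumors 2 and 3 the counts were again 2 and 1, although Bak1 did not pass (0.57, adjusted p = 0.111).

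**Figure D3:**
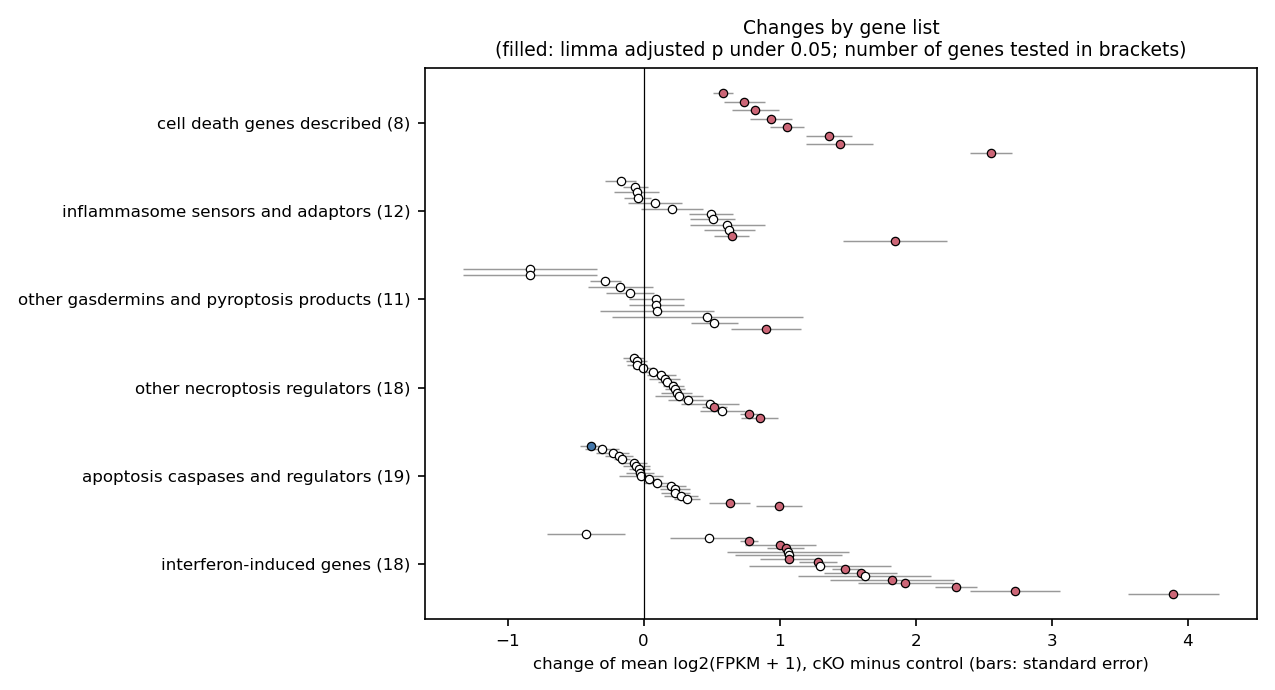
Change of mean log2(FPKM + 1), Villin-Wls cKO minus control, for each tested gene (points, with SE bars) in the 8 genes described and in 5 other lists; filled points passed a limma adjusted p of 0.05. All 8 points of the top list, whose genes were chosen with earlier results known, are filled and above 0. Of the interferon-induced genes 12 of 18 are filled. In the other lists 2 of 12 inflammasome genes, 1 of 11 pyroptosis products, 3 of 18 necroptosis regulators and 3 of 19 apoptosis genes are filled.

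Of 18 interferon-induced genes, 12 were higher in Villin-Wls cKO tumors, 0 were lower and 6 did not pass, with a median change of 1.29. One of the 12 entries, Irf9, has the values of Rnf31 and is counted in both lists. After rescaling to an equal FPKM sum 13 passed. Their summed level lay between 203 and 309 FPKM in control tumors and between 425 and 723 FPKM in Villin-Wls cKO tumors. The 5 with the largest change were Cxcl9 (3.90) and Cxcl10 (2.73), which encode chemokines for T cells, Ciita (2.30), which encodes the activator of MHC class II genes, Ifi44 (1.92) and Isg15 (1.83), which encodes a ubiquitin-like modifier. Usp18, which encodes the enzyme that removes that modifier, was the only one of the 18 with a negative value (-0.43, adjusted p = 0.395). Without Villin-Wls cKO tumors 2 and 3, 9 of the 18 passed, with a median of 1.07, and Isg15 was not among them (1.40, adjusted p = 0.141).

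Markers of other cells were read from 9 lists. T and NK cell markers were higher for 7 of 9 genes tested, with a median change of 0.90. Their summed level lay between 4.83 and 14.9 FPKM in control tumors and between 16.1 and 38.1 FPKM in Villin-Wls cKO tumors, so every Villin-Wls cKO tumor was above every control tumor. Gene by gene, 4 of the 9 separated in this way, beside 5.33% of all genes tested. The levels were low beside those of the 8 genes, which summed to between 235 and 324 FPKM in control and between 501 and 674 FPKM in Villin-Wls cKO tumors: Cd3e rose from 0.364 ± 0.0935 to 1.10 ± 0.342 FPKM, Cd8a from 0.0923 ± 0.0551 to 1.04 ± 0.430 FPKM and Nkg7 from 0.162 ± 0.170 to 2.54 ± 0.704 FPKM, while Cd4 and Cd2 did not pass. Control means of Cd3e, Cd8a, Nkg7 and Cd3d (0.481 FPKM) lay under the filter of 0.5 FPKM, which these genes passed through their Villin-Wls cKO values. Without Villin-Wls cKO tumors 2 and 3, Cd8a fell under the filter. Only Nkg7 then passed, 1 of 8 T and NK cell genes tested, and after rescaling by median ratios 6 of 9 passed. The part of T and NK cells and of interferon in the change of the 8 genes was not tested.

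Of the macrophage markers 1 of 7 (Cd14) was higher, and of the B and plasma cell markers 1 of 5 (Mzb1). No gene passed among 7 epithelial, 5 squamous, 3 pan-leukocyte, 5 neutrophil, 6 fibroblast and 4 endothelial markers. All 5 neutrophil and all 5 B and plasma cell markers nevertheless had changes above 0, with medians of 0.85 and 0.70. The median was 0.91 for squamous markers, 0.39 for pan-leukocyte markers and at most 0.20 for the remaining lists. The summed levels overlapped between the groups for all 8 of these lists. They ranged from 187 to 316 FPKM in control and 180 to 345 FPKM in Villin-Wls cKO tumors for macrophage markers, from 225 to 750.3 and from 579 to 1205 FPKM for neutrophil markers, and from 5974 to 8414 and from 7208 to 9219 FPKM for epithelial markers. The ranges were 32.4 to 154 and 11.1 to 1014 FPKM for squamous, 32.2 to 50.9 and 30.9 to 70.8 FPKM for pan-leukocyte, and 26.6 to 127 and 68.4 to 355 FPKM for B and plasma cell markers. For fibroblast markers they were 278 to 1010.5 and 378 to 1149.6 FPKM, and for endothelial markers 16.5 to 33.8 and 14.9 to 40.1 FPKM. Rescaling to an equal FPKM sum brought Vil1 (epithelial) and S100a8 (neutrophil) past the threshold, and without Villin-Wls cKO tumors 2 and 3 Cd14 and Mzb1 no longer passed (Cd14 also not after quantile normalization, adjusted p = 0.0502) while the squamous keratin Krt15 was lower (-2.03, adjusted p = 0.0487). Many cell types express the 8 genes, so these lists do not assign them to a cell type.

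**Figure D4:**
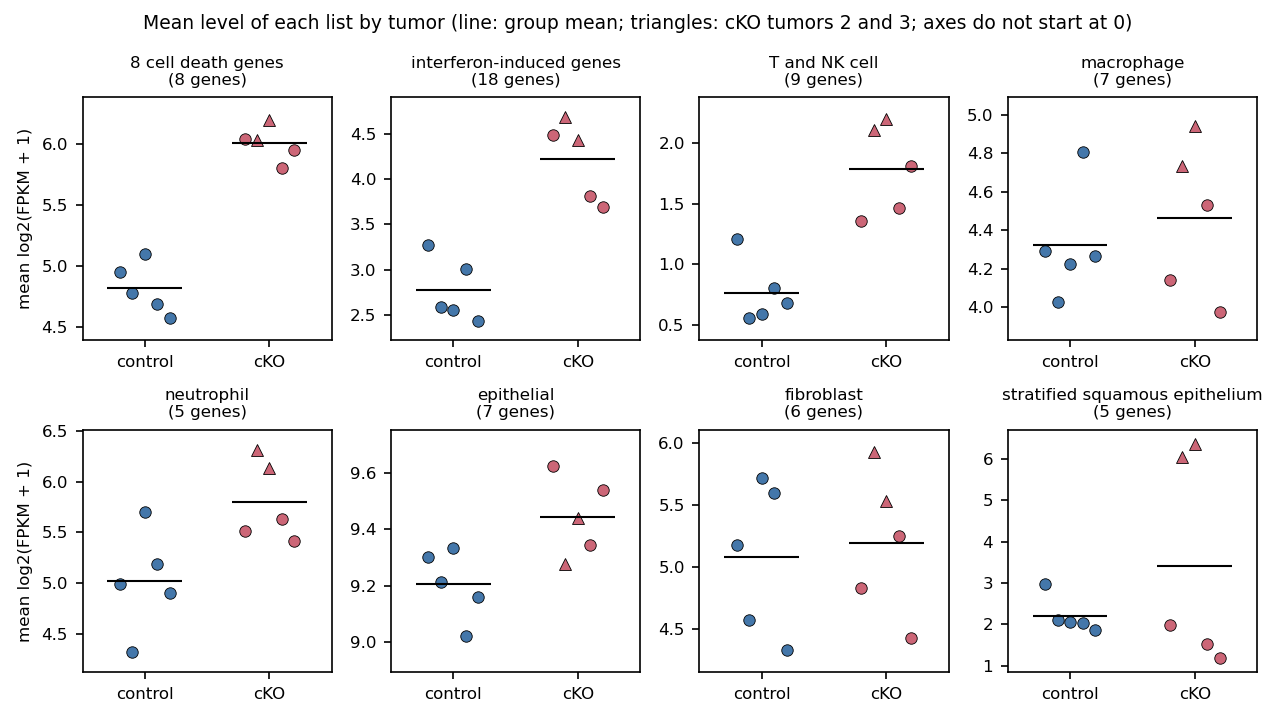
Mean log2(FPKM + 1) over the genes of each list in each tumor, with the group mean as a line and triangles for Villin-Wls cKO tumors 2 and 3; the vertical axes differ between panels and do not start at 0. The groups are apart for the 8 genes (4.57 to 5.09 against 5.80 to 6.20), the interferon-induced genes (2.44 to 3.28 against 3.69 to 4.69) and the T and NK cell genes (0.557 to 1.21 against 1.36 to 2.2), and overlap for the other lists shown.

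With Villin-Wls cKO tumors 2 and 3 left out, the change was 2.44 (Zbp1), 1.26 (Mlkl), 1.13 (Xaf1), 1.09 (Casp1), 0.90 (Ripk3), 0.80 (Casp4), 0.66 (Gsdmd) and 0.63 (Casp8). Of the 8 genes, 7 passed, with adjusted p between 0.000277 for Zbp1 and 0.0461 for Casp4, and Gsdmd did not. In this smaller comparison 6.63% of the genes tested passed, and the T and NK cell genes that passed went from 7 of 9 tested, with a median change of 0.90, to 1 of 8, with a median of 0.72.

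**Figure D5:**
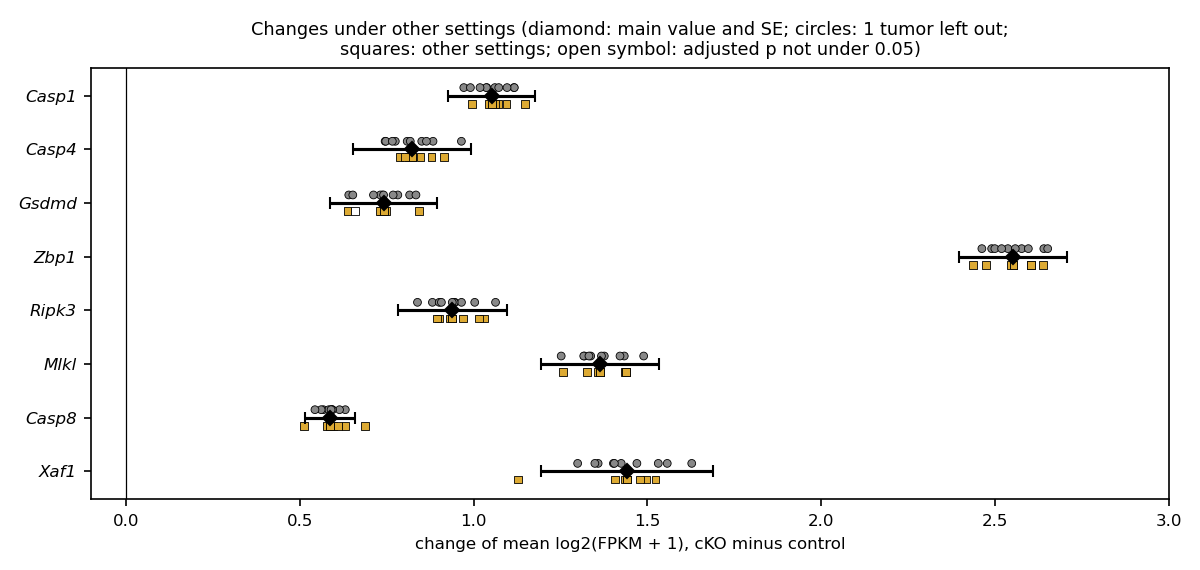
Change of mean log2(FPKM + 1), Villin-Wls cKO minus control, of each gene as reported (diamond, with SE), with 1 tumor left out (circles) and under the other settings (squares); an open symbol did not pass an adjusted p of 0.05. All values are above 0, and the only open symbol is Gsdmd without Villin-Wls cKO tumors 2 and 3, at 0.66.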

How the data were processed

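Messenger RNA from 10 AOM/DSS colon tumors, 5 Wls control and 5 Villin-Wls cKO, was sequenced from stranded libraries. Per the labels and methods, the authors used FastQC for read quality, TopHat2 2.1.1 for mapping to GRCm38.p5, and Cufflinks 2.2.1 with Cuffdiff for quantification. The deposited values are FPKM, 1 per gene name and tumor. The annotation release and the use of strand in quantification are not given in the sources used here. FPKM sums were between 1207683 and 1533885 per tumor, and correlations between tumors were 0.918 to 0.976. Read numbers are unknown, so precision rests on the spread between tumors. No column of the table was left unused.

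Groups were compared on log2(FPKM + 1) in R 4.3.3 by limma 3.58.1, with an eBayes variance trend, no covariate, a mean FPKM of at least 0.5 and a two-sided Benjamini-Hochberg adjusted p under 0.05 over 16757 genes. This replaced the test of Cuffdiff, since only FPKM were used. The pseudocount of 1 understates changes of low genes. The method was tested on simulated data. Exact permutation tests, promoter searches and figures used scipy 1.17.1, matplotlib 3.10.9, pandas 2.3.3 and numpy 2.4.6 under Python 3.11.15. Positions are those of GENCODE M21, and promoter windows those of RefSeq on GRCm38.p6.

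The 8 genes, the pathway and marker lists and the alternatives were chosen with earlier results of these data known. Every member is named. Of each pathway list, genes past the threshold are named, at most 5 in each direction in order of change, together with Nlrp3, Aim2, Nlrc4, Pycard, Il1b, Il18, Ripk1, Fadd and Cflar. The list of apoptosis genes was counted whole, but some of the genes this rule names are not reported here. Wls and Xist check the groups, and the 3 genes closest in pattern are named. Eif2s3y, Krt5, Epcam, Usp18, the marker genes, the genes with the shared promoter run and the ratios were chosen after their values were seen. Alternatives were a pseudocount of 0.1, rescaling to an equal FPKM sum or by median ratios, quantile normalization, no filter or a minimum mean of 5 FPKM, robust eBayes or eBayes with no trend, weights for tumor quality, a replicate block, identical entries counted once, each tumor left out, Villin-Wls cKO tumors 2 and 3 left out together, and log2 ratios of mean and median FPKM.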

Additional observations from a re-analysis of the deposited data

Results flagged for a closer look

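A check of the highest and lowest tumor in each group covered 33 named genes, 66 groups of 5 tumors in all, and chance alone flags about 1 in 20 groups. On the log2 scale it picked out 3 values in single control tumors, and 0 values of the 8 cell death genes. Ciita was at 0.875 FPKM in control tumor 1 and between 0.408 and 0.508 FPKM in the other control tumors, all below the Villin-Wls cKO tumors. Il1a was at 7.75 FPKM in control tumor 3 and between 3.24 and 4.13 FPKM in the others. Tnfaip3 was at 15.7 FPKM in control tumor 3 and between 10.1 and 11.4 FPKM in the others. Control tumor 3 was also the highest control tumor for Casp4, Casp8, Gsdmd, Mlkl and Ripk3.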

How the results depend on the processing

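Each of the 8 genes was recomputed under 22 alternatives with a test, 176 values in all. Of these, 175 kept their direction and their call, 0 reversed and 1 lost its call. The lost call was that of Gsdmd without Villin-Wls cKO tumors 2 and 3, a setting with fewer tumors, and the cause of the loss was not tested. The highest adjusted p over the alternatives were 0.0563 for Gsdmd and 0.0461 for Casp4, both without that pair. The median change of the 8 ranged from 0.94 to 1.07 with single tumors left out and from 0.95 to 1.09 otherwise. The number of genes called among all tested was 1822, fell to 1101 without Villin-Wls cKO tumors 2 and 3, and ranged from 1229 to 1986 with single tumors left out, while all 8 genes were called in each of the latter. Scaling moved the split of calls: 1026 higher and 796 lower as deposited became 1385 and 412 after rescaling to an equal FPKM sum, which shifted the median of all genes to 0.097, and 894 and 1126 after quantile normalization. Over the genes tested, deviations of same-numbered tumors from their group means correlated at 0.064, -0.087, 0.063, 0.10 and 0.16. Tumors of different numbers were not compared in this way, so these values cannot decide whether replicate numbers pair tumors. With a replicate block 1627 genes were called, the 8 among them. Each of the 8 had a lower SE with the block, such as 0.0685 instead of 0.0729 for Casp8 and 0.0851 instead of 0.170 for Casp4. Counts for the pathway and marker lists under 3 other scalings and without that pair were added after seeing the data, and those that differed are given with the lists. Depth is unknown, so no counting error could be given.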
